A study of Mus musculus with 6 samples.

Results

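The genes described here were listed for the building of mucin-type O-glycans, the sugar chains that cover mucins. Some listed genes serve other glycans: Fut8 and St6gal1 act on N-glycans, and B3gnt5 starts lacto-series glycolipids. C1galt1c1 encodes a chaperone. All counts of members below include these genes. The list was chosen by name, as 40 mouse symbols. They cover the initiating, core, extending, fucosyl-, sialyl- and sulfotransferases and the carrier of the sialic acid donor. Of these, 39 were measured among the 21374 genes of the deposited table, and St6galnac1 was not analysed here. Colon tissue of male C57BL/6 mice was compared between 3 libraries labelled wild type and 3 labelled Otud1-/-, a genotype that by its label lacks Otud1, which encodes a deubiquitinase. How the allele was made is not given in the sources used here. Both groups had been given azoxymethane, a colon carcinogen, by intraperitoneal injection on day 0 at 6 weeks of age, and then 3 cycles of 4 days of 1.5% dextran sulfate sodium (DSS), which injures the epithelium, each followed by 14 days of water. The distal colon was collected on day 81, with 18 weeks given as the age, and the RNA came from tissue beside the tumours after these had been cut away. Untreated mice were not among the samples, so each value below describes colon after carcinogen and DSS.

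Mucin O-glycans start when a polypeptide GalNAc-transferase of the Galnt family places N-acetylgalactosamine on serine or threonine in the Golgi. A second sugar makes a core structure, further galactose and N-acetylglucosamine residues lengthen the chain, and fucose, sialic acid or sulfate cap it. In the colon these chains give the Muc2 gel of goblet cells and the membrane mucins of enterocytes their bulk and negative charge, and colonic bacteria bind them and feed on them.

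The libraries held 15300937 to 19406407 reads assigned to genes. Otud1 itself went against the labels: its normalised read counts (reads over each library's size factor) were 111, 45.1 and 48.9 under the wild type label and 141, 150 and 208 under the Otud1-/- label (log2 change 1.37 ± 0.35 SE, limma adjusted p = 0.0934; exact two-sided permutation p = 0.1, the smallest that 3 against 3 libraries allow). Every direction below follows the labels as given and is stated as Otud1-/- minus wild type. Wild type 1 and Otud1-/- 1 stood apart from the rest, with a mean log2 of the stem and Wnt target markers of 5.58 and 10.91 against 8.32 to 9.38 in the other 4 libraries. All 15 epithelial markers were present in every library. Over 21281 tested genes, limma called 202 at an adjusted p under 0.05 (Benjamini-Hochberg over all tested genes), which is 0.949%, and 70.3% of these were lower. Scaling to total reads gave a share of 24.8% lower instead, and quantile normalisation 60.1%.

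No member passed the test between the labels. Against the 0.949% of all tested genes, 0 of the 39 were called in either direction: 0 were called lower and 0 higher (limma, adjusted p under 0.05), where 0.667% of all tested genes were called lower and 0.282% higher. At an unadjusted p under 0.05, 17 members were lower against 9.97% of all genes, and 2 were higher against 9.50%. Changes were negative for 32 members and positive for 7, while 48.3% of all tested genes had negative changes. The median change was -0.32 on the log2 scale, beside 0.02 for all tested genes. Without the libraries wild type 1 and Otud1-/- 1 together it was -0.34. Values of the labels did not overlap for 16 members lower in Otud1-/- (13.3% of all genes) and 2 members higher (13.0% of all genes). These shares are higher among genes with a mean of at least 100 normalised reads, which 35 members reached. Of these 35, 17 were lower at an unadjusted p under 0.05 (15.4% of such genes) and 31 had negative changes (55.1%). The labels did not overlap for 18 of them (32.7%, either direction). Reads of the 39 genes summed to 126653 to 129623 normalised reads under the wild type label and to 66361 to 96878 under the Otud1-/- label. This sum is weighted to the most abundant members, among them B3galt5 and St6galnac6. The total of all genes is not set beside it, and the members' median after scaling to total reads is given below.

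**Figure D1:**
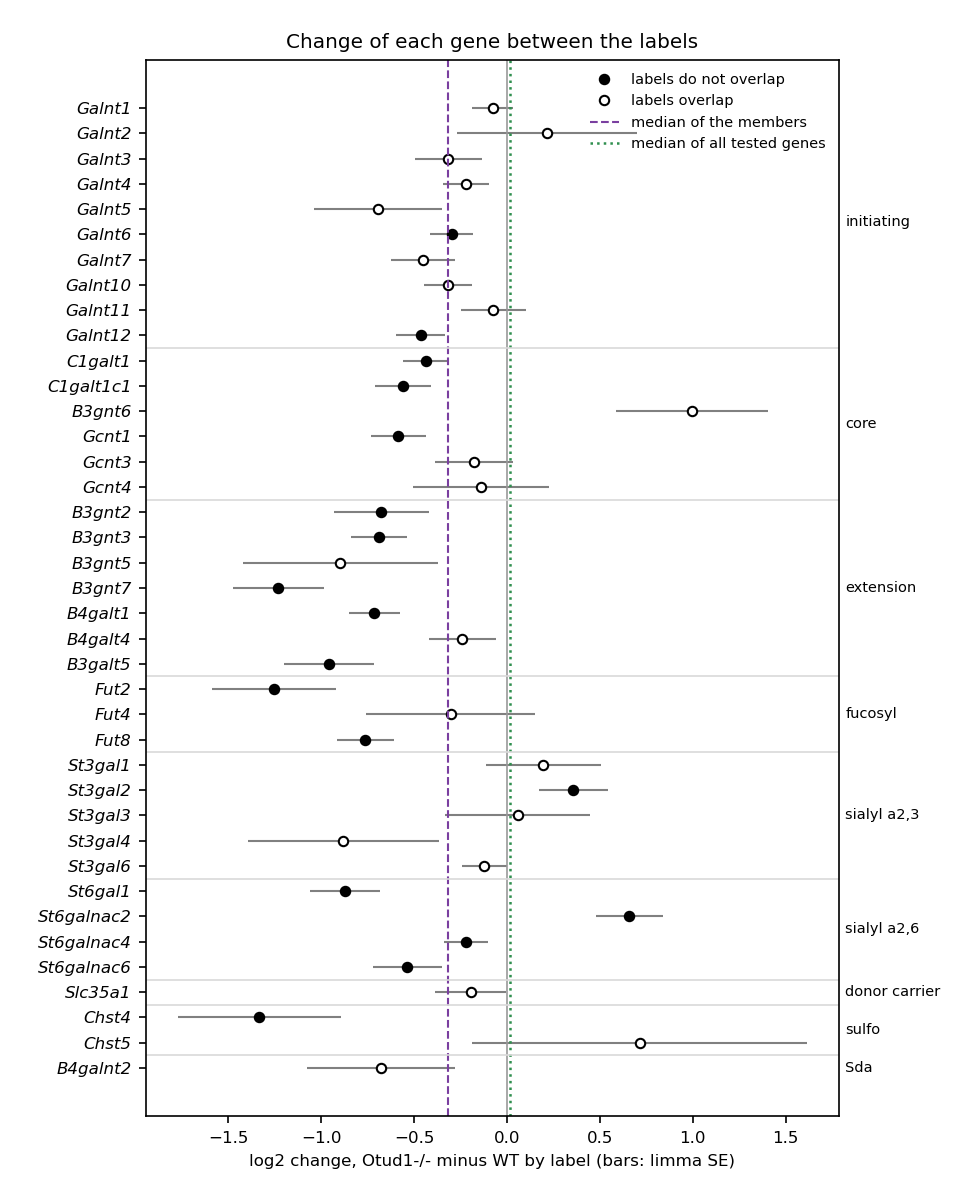
Log2 change of each of the 39 genes between the labels (x axis, Otud1-/- minus wild type on the log2(value + 1) scale, bars are limma's standard errors), grouped by role (right). Filled points are the 18 genes whose labels do not overlap. The dashed line is the median of the members at -0.32 and the dotted line the median of all tested genes at 0.02.

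How many members were called varied with the tool and with the libraries included. DESeq2 on the recovered reads called 9 members lower and 1 higher, where 4.42% and 3.98% of its tested genes were called. Those lower by DESeq2 were B3gnt7 (adjusted p = 0.000343), B4galt1 (0.00168), Fut8 (0.00362), St6gal1 (0.00431), Fut2 (0.00510), B3gnt3 (0.00552), B3galt5 (0.00916), Chst4 (0.0214) and Gcnt1 (0.0305), and St6galnac2 was higher (0.0340). edgeR called 0 of 38 members (0.400% of its genes lower, 0.143% higher). Limma called 3 lower without Otud1-/- 1 (B3galt5, B4galt1 and St6gal1), 1 without Otud1-/- 2 (B3gnt7), 3 without Otud1-/- 3 (B3gnt7, Chst4 and Fut2), and 1 without wild type 1 and Otud1-/- 1 together (B4galt1). The shares of all genes called lower in these 4 fits were 0.895%, 1.32%, 0.432% and 0.928%.

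Scaling moved the level of the whole list. After scaling to total reads, 26 of 39 changes were negative (median -0.11, all genes 0.22). After scaling to the mean of 15 epithelial markers, 18 were negative (median 0.12, all genes 0.44). There 2 of 39 members, B3gnt6 and St6galnac2, were called higher. Of the 21281 tested genes 1246 were called in that fit. Only 94 of these (7.54%) were lower and the rest were higher, so calls of higher genes were common among all genes too. After scaling to 13 goblet cell markers, 7 were negative (median 0.55, all genes 0.85), and 17 of 39 members were called higher. In that fit 13132 of the 21281 tested genes were called and 0.723% of those were lower, so most of all genes were called higher. Relative to the median of all genes the members stood at -0.33, -0.32 and -0.30 in these 3 scalings, close to the -0.33 of the deposited scaling, which follows by construction, since one factor per library shifts all genes alike.

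Markers of several cell types moved with these values, and in pieces of tissue fewer cells of a type and less RNA per cell cannot be told apart. The 15 epithelial markers summed to 482543 to 569924 normalised reads under the wild type label and 307463 to 447907 under the Otud1-/- label. For the 13 goblet cell markers the sums were 253027 to 268923 and 102346 to 114431. The 12 smooth muscle markers went the other way, at 38920 to 43073 and 64099 to 130761. All of these markers were present in every library. The mean log2 of the members differed by -0.36 between the labels. That of the epithelial list differed by -0.44 (14 negative, 1 positive) and that of the goblet list by -0.87 (12 negative, 1 positive at 2.32). The smooth muscle list differed by 1.10 (all 12 positive). Larger differences than that of the members were also found for 6 stem and Wnt target markers (2.35, all 6 positive) and 5 squamous epithelium markers (0.85, 4 positive and 1 negative). The same held for 7 B and plasma cell markers (-0.85, all 7 negative) and 8 macrophage markers (-0.74, all 8 negative). Differences equal to that of the members after rounding were found for 8 T and NK cell markers (-0.36, all 8 negative) and 7 neutrophil markers (-0.36, 3 negative and 4 positive). Smaller ones were found for absorptive colonocyte (-0.26), endothelium (0.18) and fibroblast markers (0.11). The part of these cell types in the members' values was not tested.

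**Figure D2:**
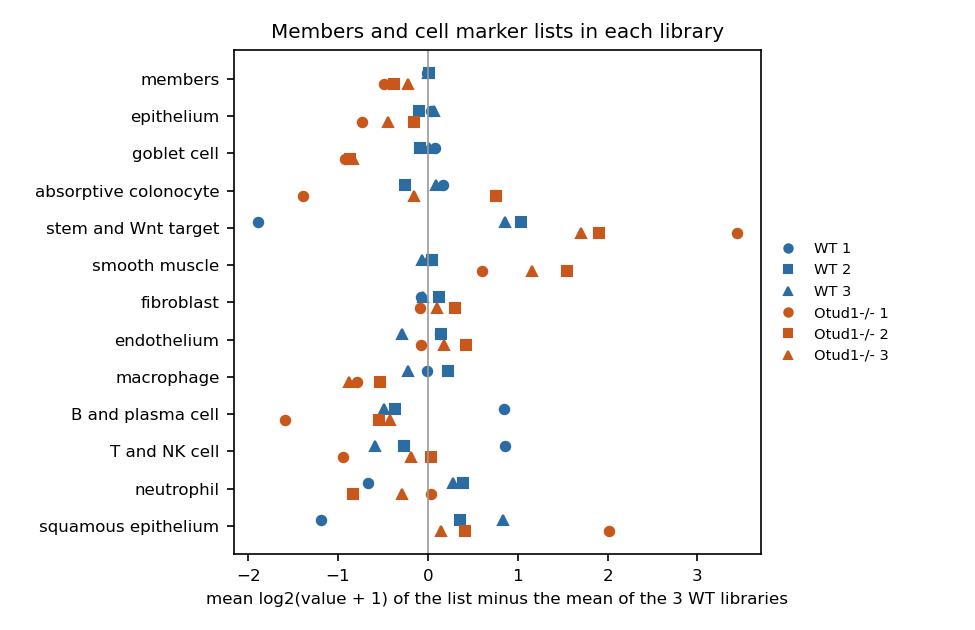
Mean log2(value + 1) of the members and of 12 cell marker lists in each library, minus the mean of the 3 wild type libraries (x axis). Blue points are the libraries labelled wild type and orange points those labelled Otud1-/-. The members lie below the wild type libraries in all 3 libraries labelled Otud1-/-, as do the goblet cell markers, while the absorptive colonocyte markers are lowest in Otud1-/- 1 and highest in Otud1-/- 2.

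Levels of the members, in normalised reads per kilobase of exon, spanned a wide range under the wild type label. The sialyltransferase gene St6galnac6 was highest at 3898 ± 215 (SD, n = 3), followed by B3galt5 at 3791 ± 81.8, B3gnt3 at 3170 ± 104, St3gal4 at 2524 ± 378, B3gnt7 at 2073 ± 122 and Fut2 at 2063 ± 314. The first pair, and also B3gnt7 and Fut2, lay within their spread of each other. The colon enzyme gene B4galnt2 stood at 1532 ± 162, B4galt1 at 1359 ± 40.5 and Galnt12, the highest initiating enzyme, at 970 ± 89.6. At the other end were Gcnt4 at 19.2 ± 4.10, B3gnt6 at 8.25 ± 2.35, Galnt2 at 2.06 ± 0.890 and Chst5 at 0.473 ± 0.467. In the annotation used here, 90.0% of the Galnt2 exon length and 58.6% of the B3gnt2 exon length are shared with a read-through gene on the same strand (Gm20388 and Gm28048). The rule by which shared reads were counted is not given in the sources used here, so a low transcript level and reads left out of both genes cannot be told apart for Galnt2 and B3gnt2.

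**Figure D3:**
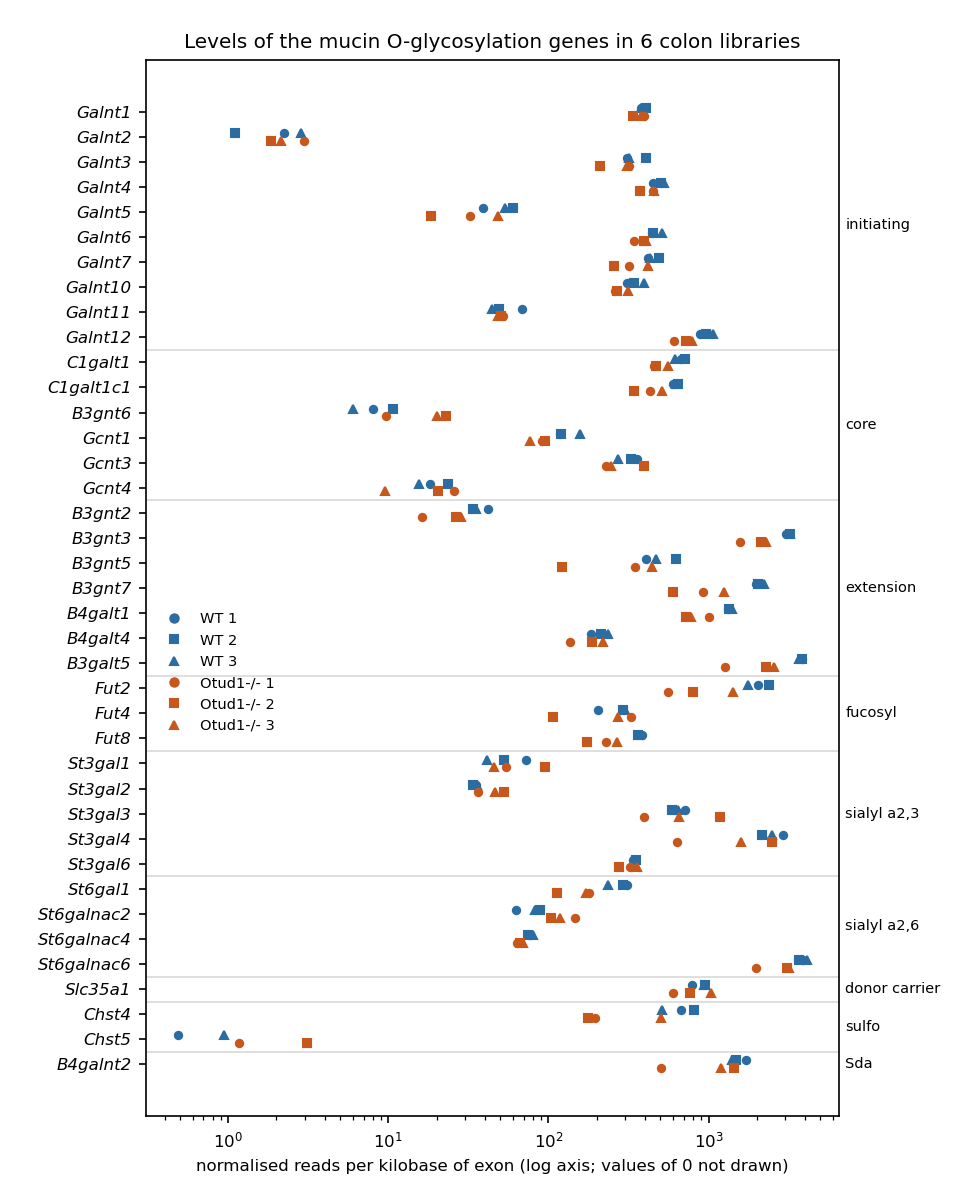
Level of each gene in the 6 libraries (x axis, normalised reads per kilobase of exon, log axis, values of 0 not drawn), grouped by role. Blue symbols are the libraries labelled wild type and orange symbols those labelled Otud1-/-. St6galnac6, B3galt5 and B3gnt3 lie at the top of the range, and Galnt2 and Chst5 at the bottom.

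Of 10 initiating Galnt genes, 0 were called and 9 had negative changes (median -0.31 on the log2 scale). At an unadjusted p under 0.05, 4 were lower (9.97% of all genes). The labels overlapped for 8 and did not overlap for 2, against 26.3% of all genes without overlap in either direction. Galnt12 (chromosome 4, 47091909 to 47123070 in GRCm38), the most abundant per length and the one with the smallest p, had normalised read counts of 2027, 2194 and 2435 under the wild type label, in replicate order, and of 1384, 1656 and 1801 under the Otud1-/- label. The same order is kept throughout. All 3 libraries labelled Otud1-/- were below all 3 labelled wild type. The means were 2219 ± 205 and 1614 ± 212 (SD, n = 3), a log2 change of -0.46 ± 0.13 SE (limma, adjusted p = 0.112). Galnt6 also did not overlap, at 1718, 1747 and 1969 against 1326, 1524 and 1575 (log2 change -0.30). Galnt7 and Galnt10, whose enzymes add GalNAc to peptides that already carry some, changed by -0.45 and -0.32, with an overlap between the labels. Galnt1, Galnt3 and Galnt4 were measured at 1223 to 2520 normalised reads on average in either label and changed by -0.08, -0.31 and -0.22. Galnt5 was sparser, at 82.1 to 267 in single libraries, and changed by -0.69 ± 0.34 SE. Galnt11 changed by -0.07. Galnt2, with 57 reads over all 6 libraries, had a change of 0.21 ± 0.48 SE.

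Of 6 core formation genes 0 were called, and 5 had negative changes (median -0.31). C1galt1, the core 1 galactosyltransferase (chromosome 6, 7844842 to 7875687), had 4102, 4354 and 3766 normalised reads under the wild type label and 2800, 2843 and 3399 under the Otud1-/- label. The labels did not overlap, and the log2 change was -0.44 ± 0.12 SE (limma, adjusted p = 0.109). C1galt1c1 encodes the chaperone Cosmc, without which C1galt1 does not fold. Its values were 871, 940 and 909 against 628, 499 and 743, without overlap (log2 change -0.56). B3gnt6, the core 3 synthase, was measured at 19.0, 25.4 and 14.3 normalised reads under the wild type label and at 23.0, 54.0 and 47.4 under the Otud1-/- label. Its labels overlapped, since Otud1-/- 1 lay within the wild type range, and its change of 0.997 ± 0.41 SE had a limma adjusted p of 0.224.

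The ratio of B3gnt6 to C1galt1 within a library depends on the scaling only through the 1 added to each value. As log2 of (B3gnt6 + 1) over (C1galt1 + 1), both in normalised reads, it was -7.68, -7.37 and -7.95 under the wild type label, against -6.86, -5.69 and -6.13 under the Otud1-/- label. Every library labelled Otud1-/- had the higher ratio, by 1.43 on the log2 scale on average (2.70-fold; exact two-sided permutation p = 0.1, the smallest possible with 3 against 3). The numerator rests on 181 reads over all 6 libraries.

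Core 2 branches are made by the Gcnt enzymes. Gcnt1, the form known from leukocytes (chromosome 19, 17326141 to 17372844), had 682, 689 and 905 normalised reads against 522, 544 and 444. No library labelled Otud1-/- reached the wild type range, and the log2 change was -0.58 ± 0.15 SE (limma, adjusted p = 0.0936). Gcnt3, the mucin-type enzyme that also makes core 4, overlapped, at 1532, 1410 and 1178 against 986, 1699 and 1052 (log2 change -0.18 ± 0.21 SE). The log2 ratio of Gcnt3 to Gcnt1 was 0.86 ± 0.42 (SD, n = 3) under the wild type label and 1.27 ± 0.36 under the Otud1-/- label, a difference of 0.41 (exact two-sided permutation p = 0.4). Gcnt4 changed by -0.14 ± 0.37 SE.

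All 7 chain extension genes had negative changes (median -0.71), against 48.3% of all tested genes, and the labels did not overlap for 5 (13.3% of all genes were lower without overlap). These enzymes add the alternating galactose and N-acetylglucosamine of the chain. B4galt1, a widely expressed galactosyltransferase (chromosome 4, 40804602 to 40854005), had 5640, 5675 and 5953 normalised reads under the wild type label and 4239, 3073 and 3309 under the Otud1-/- label. The labels did not overlap, and the means were 5756 ± 172 and 3540 ± 616 (SD, n = 3). The log2 change was -0.71 ± 0.14 SE with the smallest p of all members (limma, adjusted p = 0.0511).

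B3gnt7, which lengthens sulfated chains, had the largest change in this role. Its normalised reads (chromosome 1, 86302832 to 86307305) were 8129, 8470 and 9125 against 3804, 2466 and 5182. Even the highest library labelled Otud1-/- was far below the lowest labelled wild type. The means were 8575 ± 506 and 3817 ± 1358 (SD, n = 3), a log2 change of -1.23 ± 0.24 SE (limma, adjusted p = 0.0635). It was called without Otud1-/- 2 (log2 change -0.95, limma adjusted p = 0.0385) and without Otud1-/- 3 (-1.48, 0.0231).

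B3gnt3 extends core 1 (chromosome 8, 71690756 to 71701789). It was measured at 9323, 9919 and 9807 against 4787, 6484 and 6950 normalised reads. The labels stood apart, with a log2 change of -0.69 ± 0.15 SE (limma, adjusted p = 0.0660). B3galt5 makes type 1 chains and adds galactose to core 3, and had the most reads of all members (chromosome 16, 96235801 to 96319859). Its values were 23636, 23641 and 22766 under the wild type label and 7832, 13993 and 15882 under the Otud1-/- label, of which Otud1-/- 1 was by far the lowest. The log2 change was -0.96 ± 0.24 SE (limma, adjusted p = 0.1002), and -0.65 without Otud1-/- 1, where it was called (limma, adjusted p = 0.0388). B3gnt2, the poly-N-acetyllactosamine enzyme, had 174, 142 and 147 against 67.4, 110 and 118 normalised reads, without overlap (log2 change -0.68, limma adjusted p = 0.197), and the change was -0.43 without Otud1-/- 1. B3gnt5, which starts lacto-series glycolipids, spread widely, at 2129, 3271 and 2438 against 1800, 632 and 2311 (log2 change -0.90 ± 0.53 SE). B4galt4 changed by -0.24 ± 0.18 SE.

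The upstream bases of B4galt1 and B3gnt3 are printed because they are the members with the smallest p that have a single listed start and at least 100 upstream bases outside annotated exons. The sequences are from RefSeq (GRCm38.p6), 5′ to 3′ on the strand of the gene, and stop before the first annotated exon base. Capitals mark matches to the searched motifs.
B4galt1, chr4:40854006-40854234, minus strand: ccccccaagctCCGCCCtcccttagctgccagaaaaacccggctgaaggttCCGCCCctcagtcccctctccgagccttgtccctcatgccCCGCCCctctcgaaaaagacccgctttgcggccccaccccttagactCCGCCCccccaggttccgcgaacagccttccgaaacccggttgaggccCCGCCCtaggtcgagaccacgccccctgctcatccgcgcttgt
B3gnt3, chr8:71701801-71702050, minus strand: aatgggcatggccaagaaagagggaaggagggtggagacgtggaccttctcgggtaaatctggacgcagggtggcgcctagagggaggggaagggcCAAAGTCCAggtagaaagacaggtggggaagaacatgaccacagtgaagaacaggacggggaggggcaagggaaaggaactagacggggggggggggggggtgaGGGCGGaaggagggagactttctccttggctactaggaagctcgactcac

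Both strands were searched for 5 motifs. The first was GGGCGG, the GC box bound by Sp and Klf factors. Basal promoter elements were searched as CCAAT and as TATAAA. A Cdx motif was searched as TTTATNG. An Hnf4 motif was searched as CAAAGTNCA. No match in the printed windows overlaps another. B4galt1 had 5 matches to GGGCGG, all on the opposite strand, and none to the other 4 motifs. B3gnt3 had 1 match to GGGCGG and 1 to CAAAGTNCA. In 250 upstream bases, GGGCGG was present in 32.7% of the 32851 listed promoters and in 20 of the 41 promoters listed for 28 members. CAAAGTNCA was present in 1.19% of all promoters and in 1 member promoter, that of B3gnt3. A match of letters does not show that a factor binds.

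The fucosyltransferase genes had negative changes in all 3 cases. Fut2 adds the terminal fucose of the H antigen on colonic mucins (chromosome 7, 45648591 to 45666394). It had 11104, 12955 and 9554 normalised reads under the wild type label and 3025, 4340 and 7699 under the Otud1-/- label. The labels did not overlap, though Otud1-/- 3 came near the wild type range, and the means differed 2.23-fold (11204 ± 1703 and 5021 ± 2410, SD, n = 3). The log2 change was -1.25 ± 0.33 SE (limma, adjusted p = 0.123), and without Otud1-/- 3 it was -1.62 and called (limma, adjusted p = 0.0211).

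Fut8, which adds the core fucose of N-glycans and thus marks a different glycan class, was tighter. Its values (chromosome 12, 77238125 to 77476338) were 3042, 2882 and 2898 against 1808, 1369 and 2104. Every library labelled Otud1-/- lay below the wild type range, with a log2 change of -0.76 ± 0.15 SE (limma, adjusted p = 0.0551). Fut4, which makes Lewis x structures, overlapped, at 827, 1184 and 1220 against 1326, 432 and 1107 (log2 change -0.30 ± 0.46 SE).

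The sialyltransferase genes did not share a direction. Of 9 measured, 5 had negative and 4 positive changes (median -0.12). Among the alpha-2,3 enzymes, St3gal1, which caps core 1, changed by 0.20 ± 0.31 SE, and St3gal6 by -0.12 ± 0.12 SE. St3gal2, the role's smallest p (chromosome 8, 110919922 to 110972480), had 177, 169 and 180 against 184, 265 and 233 normalised reads. The labels were separated by only a few reads and the change was 0.36 ± 0.19 SE (limma, adjusted p = 0.330). St3gal4, the most abundant of this role (chromosome 9, 35046576 to 35119268), had 8545, 6351 and 7234 against 1847, 7308 and 4658. Otud1-/- 2 lay within the wild type range and Otud1-/- 1 far below it, so that the change of -0.88 ± 0.52 SE was not called (limma, adjusted p = 0.411). It was -0.33 without Otud1-/- 1 and -1.32 without Otud1-/- 2. St3gal3 was likewise spread in the libraries labelled Otud1-/-, at 1091, 3262 and 1815 against 1976, 1632 and 1774.

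Of the alpha-2,6 enzymes, St6gal1 and St6galnac2 had opposite signs. St6gal1 sialylates N-glycans (chromosome 16, 23224740 to 23360350), and its normalised reads were 1517, 1437 and 1166 against 884, 556 and 840. The labels did not overlap and the log2 change was -0.87 ± 0.19 SE (limma, adjusted p = 0.0661). St6galnac2 sialylates the core GalNAc of O-glycans (chromosome 11, 116675303 to 116694868). Its values were 361, 514 and 474 under the wild type label and 853, 597 and 681 under the Otud1-/- label. All 3 of the latter were above all 3 of the former, with a log2 change of 0.66 ± 0.18 SE (limma, adjusted p = 0.105; edgeR adjusted p = 0.110). Without wild type 1 and Otud1-/- 1 together the change was 0.37. A second annotated gene of the same name overlaps it on the same strand, so the division of reads between them is uncertain.

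St6galnac6 and St6galnac4 are neighbours on the plus strand of chromosome 2, with 10 bases between the annotated genes (32587095 to 32599698 for St6galnac4, 32599709 to 32620806 for St6galnac6). St6galnac6 had 18670, 17788 and 19854 normalised reads against 9484, 14968 and 15257, without overlap (log2 change -0.54 ± 0.19 SE, limma adjusted p = 0.170), and the change was -0.31 without Otud1-/- 1. St6galnac4 had 497, 485 and 518 against 410, 427 and 451, also without overlap (log2 change -0.22). Per kilobase of exon, the level of St6galnac6 under the wild type label was 3898 and that of St6galnac4 77.1.

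Slc35a1, the Golgi carrier of CMP-sialic acid on which all sialyltransferases depend (chromosome 4, 34663257 to 34687438), had 1799, 2185 and 2153 against 1369, 1748 and 2359 normalised reads. The labels overlapped, with the highest value in Otud1-/- 3, and the change was -0.19 ± 0.19 SE (limma, adjusted p = 0.613). It was -0.40 without Otud1-/- 3 and -0.0049 without Otud1-/- 1.

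Chst4, which sulfates N-acetylglucosamine, had the largest negative change of all members. Its values (chromosome 8, 110029153 to 110039740) were 1530, 1840 and 1175 under the wild type label and 448, 402 and 1144 under the Otud1-/- label. Otud1-/- 1 and 2 were far below the wild type range and Otud1-/- 3 just below it. The log2 change was -1.33 ± 0.44 SE (limma, adjusted p = 0.193), and -1.81 without Otud1-/- 3, where it was called (limma, adjusted p = 0.0127). Its relative Chst5 had 12 reads over all 6 libraries and is given no fold. B4galnt2, which makes the Sda antigen of colonic mucins (chromosome 11, 95865943 to 95914891), had 2948, 2562 and 2405 against 870, 2483 and 2053 normalised reads. Otud1-/- 1 was lowest and Otud1-/- 2 lay within the wild type range, and the change was -0.68 ± 0.40 SE (limma, adjusted p = 0.409). Without Otud1-/- 1 it was -0.22.

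The libraries labelled Otud1-/- were low in different genes. Of the 39 members, 16 had their lowest value in Otud1-/- 1, 14 in Otud1-/- 2 and 2 in Otud1-/- 3. Over all tested genes the shares with the lowest value there were 23.9%, 14.9% and 11.5%. B3galt5, Fut2, St3gal4, St6galnac6, B4galnt2, B3gnt3 and Galnt12 were among those lowest in Otud1-/- 1, and B3gnt7, B4galt1, Fut8, St6gal1, Chst4, B3gnt5 and Galnt7 among those lowest in Otud1-/- 2. The summed level of 10 absorptive colonocyte markers was 25764 in Otud1-/- 1, 125962 in Otud1-/- 2 and 66607 in Otud1-/- 3, beside 84996 to 122560 under the wild type label. St3gal4 followed the same order, at 1847, 7308 and 4658. The goblet cell markers had nearly the same sum in the 3 Otud1-/- libraries (105021, 102346 and 114431). The part of these markers in the single members' values was not tested.

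**Figure D4:**
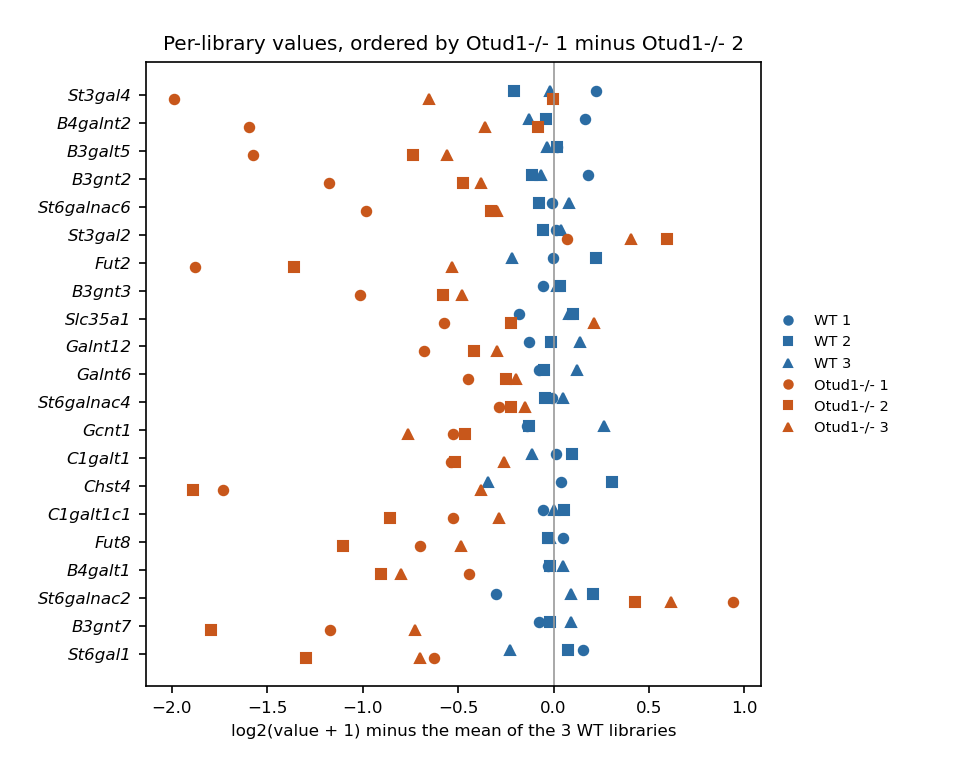
Values of 21 members in each library as log2(value + 1) minus the mean of the 3 wild type libraries (x axis). The genes shown are the 18 whose labels do not overlap and the other members named for their rank within a role, ordered from those lowest in Otud1-/- 1 relative to Otud1-/- 2 (top) to the reverse (bottom). St3gal4 and B4galnt2 are lowest in Otud1-/- 1 and within the wild type range in Otud1-/- 2, whereas St6gal1, B3gnt7 and B4galt1 are lowest in Otud1-/- 2.

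The supply of sugar and sulfate donors had mostly negative changes too. Of 21 genes of this list, 20 had negative changes (median -0.29), 0 were called (limma), and 11 were lower and 0 higher at an unadjusted p under 0.05 (9.97% and 9.50% of all genes). The labels did not overlap for 13 that were lower (13.3% of all genes) and 1 that was higher (13.0%). Gfpt1, the first enzyme of the hexosamine pathway, had 15648, 15567 and 15236 against 8603, 9283 and 12060 normalised reads (a change of -0.65 ± 0.15 SE on the log2 scale, limma adjusted p = 0.0690). Gmds, the first enzyme of GDP-fucose synthesis, had 7824, 7071 and 8387 against 3791, 4006 and 6098 (-0.77 ± 0.18 SE, limma adjusted p = 0.0781). In both, all libraries labelled Otud1-/- lay below the wild type range.

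Of 8 measured mucin genes, limma called 1 lower and 0 higher, where it called 0.667% of all genes lower and 0.282% higher. Muc13, a membrane mucin of enterocytes, fell from 96304, 97654 and 99091 to 41349, 43064 and 60680 normalised reads, a log2 change of -1.04 ± 0.17 SE (limma, adjusted p = 0.0352). The call was lost without any single library labelled wild type (limma, adjusted p = 0.144, 0.132 and 0.175 without wild type 1, 2 and 3), where the change was -1.05 to -1.03. It was also lost with edgeR (-1.005, adjusted p = 0.0649) and after quantile normalisation (-0.45, limma adjusted p = 0.196), while DESeq2 called it (adjusted p = 7.66e-06). Muc2, the gel-forming mucin of goblet cells, had 68547, 82561 and 73963 against 35754, 30901 and 49488 (log2 change -0.98 ± 0.19 SE, limma adjusted p = 0.0511).

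**Figure D5:**
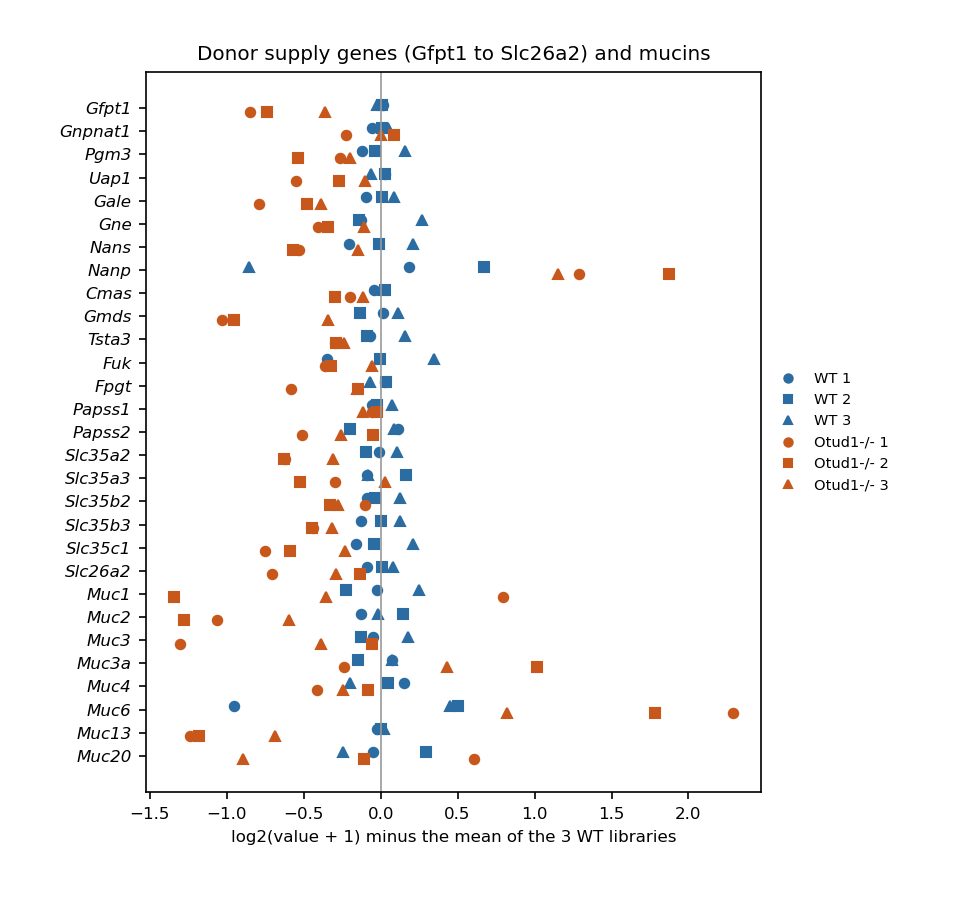
Donor supply genes (Gfpt1 to Slc26a2) and mucins in each library, as log2(value + 1) minus the mean of the 3 wild type libraries (x axis). Most donor supply genes lie to the left in all 3 libraries labelled Otud1-/-. Muc13, the called mucin, has all 3 of them on the left, and Nanp, on the right, has few reads.

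Among 36 other glycosyl- and sulfotransferase genes measured, limma called 1 lower and 0 higher (0.667% and 0.282% of all genes), with 19 negative and 17 positive changes (median -0.06). Abo, the blood group transferase that acts on the H antigen made by Fut2, fell from 186, 236 and 220 to 84.5, 101.2 and 113 normalised reads (a change of -1.10 ± 0.20 SE on the log2 scale, limma adjusted p = 0.0467). That call was lost without any single library (limma, adjusted p from 0.0524 to 0.182) and with edgeR (adjusted p = 0.0638). It was kept with DESeq2 (adjusted p = 0.000249), and in limma with array quality weights (adjusted p = 0.0262) and quantile normalisation (0.0324). Abo was called in 7 of 21 settings. Galnt16 had 27.4, 19.8 and 26.5 against 58.9, 87.7 and 67.6, without overlap (log2 change 1.50 ± 0.29 SE, limma adjusted p = 0.0543).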

How the data were processed

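The authors deposited 1 table of a normalised signal per gene for 6 libraries; mm10 is the only build listed, per the submitters' processing notes, while aligner, counter and strand setting are not given in the sources at hand. In every column all values were whole multiples of 1 step (tolerance 0.001 of a read), the reciprocal of the median-of-ratios size factor, so whole reads were recovered for 100% of values. IDs were matched to GENCODE vM21 (GRCm38; 21336 of 21374), which gave symbols, positions and exon lengths; of 2 St6galnac2 rows the more abundant was used. The test was limma 3.58.1 (R 4.3.3; trend and robust) on log2(value + 1), two-sided, over 21281 genes with a value of at least 1 in at least 3 libraries, with Benjamini-Hochberg adjustment; all 39 members passed that filter. Fold changes are on that scale, so changes of sparse genes are understated. Count tests on recovered reads (edgeR 4.0.16 with TMM, DESeq2 1.42.0), other scalings, filters and pseudocounts, a replicate block and the omission of libraries were alternatives. Scripts were tested on simulated data. Named genes were those called, those with the smallest p or highest level per role, and those without overlap and a change of at least 1.5-fold; related lists gave called genes and the 2 with the smallest p. C1galt1c1, B3gnt6, St3gal3 and other members outside this rule are given because every member is accounted for. The members and lists were chosen with earlier results of these data known. The labels do not say whether libraries came from separate animals, so p-values measure the spread between libraries, which may be technical. Reads carry no molecular identifiers. A planned ratio of St6galnac1 to St3gal1 was not made.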

Additional observations from a re-analysis of the deposited data

How the results depend on the processing

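Limma called 202 genes; the count was 122 with a mean of at least 5, 118 with a pseudocount of 0.1, 416 when scaled by total reads, 1246 and 13132 after scaling to the epithelial and goblet markers, 0 without trend and robust, 564 with array quality weights, 91 with edgeR, 1412 with DESeq2, 394 without wild type 1 and Otud1-/- 1 together, and 10 to 340 without single libraries. Members called lower were 5 with array quality weights (1.62% of all genes were called lower) and 9 with DESeq2 (4.42%). They were 1 without wild type 1 and Otud1-/- 1 together (0.928%) and 0 to 3 without single libraries (0.0426% to 1.32%). Members called higher were 1 with DESeq2 (3.98% of its genes), and 2 and 17 after scaling to the epithelial and goblet markers. Of the 1246 and 13132 genes called in these 2 scalings, out of 21281 tested, 94 and 95 (7.54% and 0.723%) were lower. The rest were higher, so these member counts stand beside many calls among all genes. The median of the members was -0.11 when scaled by total reads, 0.12 and 0.55 after scaling to the epithelial and goblet markers, and -0.49 to -0.33 without single libraries.

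The replicate block called 18 genes and 0 members. Deviations of same-numbered libraries from the means of their labels correlated at -0.26, -0.10 and -0.09. Such deviations cancel within each label, so these values cannot tell whether the numbers pair the libraries. Otud1 passed with an adjusted p after scaling to the epithelial (log2 change 1.81) and goblet markers (2.23), with array quality weights (1.59), with DESeq2 (1.29) and without wild type 1 and Otud1-/- 1 together (1.89).

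After scaling to the goblet markers, 7 members had negative changes in place of 32. Among the genes named by rule, signs turned for Galnt12 (0.41), C1galt1 (0.43), Gcnt1 (0.29), B3gnt2 (0.19), B3gnt3 (0.18), B4galt1 (0.16), Fut8 (0.11), St6galnac6 (0.34), B4galnt2 (0.19), Gfpt1 (0.22), Gmds (0.10) and Slc35a1 (0.68), and after scaling to the epithelial markers for C1galt1 (0.0036) and Slc35a1 (0.25), which was also 0.014 when scaled by total reads. These turns follow from the scaling, which shifts all genes alike. The ratio of B3gnt6 to C1galt1 differed by 1.17 to 1.75 and that of Gcnt3 to Gcnt1 by 0.17 to 0.58 without single libraries. Depth limits Chst5, Galnt2 and B3gnt6.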

Other observations

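The next pair of genes was chosen after their values were seen and passed no test. A4gnt, which caps mucin chains with alpha-linked N-acetylglucosamine, had 28.5, 33.9 and 33.6 normalised reads under the wild type label and 70.8, 47.2 and 87.8 under the Otud1-/- label (log2 change 1.04 ± 0.31 SE, limma adjusted p = 0.122). Muc6, the gland mucin that carries such caps in the stomach, had 17.9, 50.8 and 48.9 against 178, 125 and 63.6 (1.63 ± 0.50 SE, limma adjusted p = 0.138). In both, the labels did not overlap, as for 13.0% of all tested genes in this direction.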
